A study of Mus musculus with 62 samples.

Results

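The genes described here carry fatty acids into the muscle fiber and oxidize them. The 10 members were Lpl, Cd36, Fabp3, Cpt1b, Cpt2, Acadvl, Acadl, Acadm, Hadha and Ucp3, out of 19220 genes named in the lists used. A region counted as a member region where the list assigned it to 1 of these genes, which is the gene with the nearest transcription start site. This gave 337 of 297760 peaks in the 8 lists of H3K27ac (acetylation of histone H3 at lysine 27, found at active enhancers and promoters), 185 of 298522 peaks in the 8 lists of H3K4me2 (dimethylation of histone H3 at lysine 4, found at enhancers and promoters) and 12 of 5334 regions in the 4 lists of differential H3K27ac. Assignment to the nearest start site does not show that a region acts on that gene.

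Both marks were profiled by ChIP-seq in 8 groups, with 2 libraries per group and mark. The muscles of sedentary wild-type mice were the quadriceps (Quad), the extensor digitorum longus (EDL, a fast muscle), the soleus (Sol, rich in slow fibers) and the diaphragm (Dia). The other 4 groups were Quad from sedentary mice (Sed), from mice with 4 weeks of access to a running wheel beginning at 8 weeks of age (Ex), from mTg mice, which overexpress the coactivator gene Pgc1a, and from their wild-type littermates (Wt). Mice were male C57BL/6. The muscle creatine kinase promoter drove Pgc1a in mTg, so the transgene was made in the fibers themselves. Ex muscle was collected 4 to 6 h after the last bout. A Quad histone sample came from 1 animal, and an EDL, Sol or Dia sample pooled 3 animals, so the spread between the 2 libraries of a group covers different numbers of animals. Whole muscle was used, and a changed share of a cell type cannot be told apart from changed chromatin within it.

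Lipoprotein lipase (Lpl) frees fatty acids from circulating triglyceride, CD36 takes them across the membrane, and the binding protein FABP3 carries them through the cytosol. CPT1B at the outer and CPT2 at the inner mitochondrial membrane move long-chain acyl groups into the matrix as carnitine esters. There the acyl-CoA dehydrogenases for very long (Acadvl), long (Acadl) and medium (Acadm) chains and the trifunctional protein, whose alpha subunit is Hadha, run beta-oxidation. UCP3 is a carrier of the inner mitochondrial membrane that muscle expresses when fatty acid supply is high. PGC1α coactivates nuclear receptors of the PPAR and ERR families, which are known to drive genes of this pathway.

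Depth was 6.41 to 24.2 M tags per histone library (median 19.5). Skeletal muscle markers had a peak for at least 8 of 9 genes in every H3K27ac list. The 9 were Acta1, Ckm, Mylpf, Tnnt3, Actn3, Myh4, Myh1, Pvalb and Mb. The paper ties Myh4 and Pvalb to glycolytic muscle, so sums over this set also follow fiber type. The libraries labelled mTg H3K4me2 stood apart. Their strongest Ckm peak (muscle creatine kinase) was at percentile 39.6 of peak score within its list, against 74.1 to 97.4 in the other 7 H3K4me2 lists, and a library of this pair had the lowest depth. The Ex H3K27ac list had a summed peak score over the muscle markers of 3370.3, against 6939.5 in Sed. Over the endothelial markers the sums were 4457.9 in Ex and 3713.7 in Sed. Peak score is the authors' tag total of a peak after scaling by library size.

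The differential regions of this pathway lay in part over accessible chromatin. The following windows are 195 bases of mm10 around ATAC-seq peaks (accessible chromatin) of control Quad. They are a selection from the H3K27ac regions of Fabp3, Cd36 and Ucp3 that differed between groups. In the Fabp3 promoter region and the Cd36 region, the window with TNAAGGTCA is the one shown. Not shown are chr4:130308523-130308717 and chr5:17893869-17894063, with none of the words below, and chr4:130312621-130312815, with AGGTCA only. The windows shown are on the plus strand and hold no exon. Each label names the H3K27ac region, not the place of the window within it. The Fabp3 start site is at chr4:130308738 and the upstream Cd36 start site at chr5:17888959. Neither window with TNAAGGTCA lies over these start sites. Capitals mark AGGTCA (the hexamer that nuclear receptors bind), its extended form TNAAGGTCA (the ERR motif, which contains AGGTCA) and the GC box GGGCGG, each on either strand, so that TGACCT and CCGCCC are the reverse strand.
Fabp3, promoter region, chr4:130306833-130307027: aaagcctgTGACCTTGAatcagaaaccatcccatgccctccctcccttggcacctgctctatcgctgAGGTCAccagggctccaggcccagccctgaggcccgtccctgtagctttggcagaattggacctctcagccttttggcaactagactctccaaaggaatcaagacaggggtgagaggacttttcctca
Fabp3, upstream region, chr4:130299383-130299577: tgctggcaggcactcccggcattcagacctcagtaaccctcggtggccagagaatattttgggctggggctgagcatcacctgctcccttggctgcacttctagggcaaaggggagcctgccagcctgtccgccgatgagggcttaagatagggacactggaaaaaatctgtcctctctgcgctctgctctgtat
Cd36, region over the upstream start site, chr5:17876738-17876932: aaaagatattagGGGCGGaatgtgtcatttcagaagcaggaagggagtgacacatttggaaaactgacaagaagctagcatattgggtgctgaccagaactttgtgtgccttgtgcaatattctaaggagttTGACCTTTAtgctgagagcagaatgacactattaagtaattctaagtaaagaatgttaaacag
Ucp3, distal region in an intron of C2cd3, chr7:100438809-100439003: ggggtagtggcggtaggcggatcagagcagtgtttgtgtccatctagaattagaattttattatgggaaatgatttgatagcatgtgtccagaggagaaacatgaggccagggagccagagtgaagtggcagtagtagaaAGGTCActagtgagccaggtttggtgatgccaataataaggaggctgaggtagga

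TNAAGGTCA was present in 2 of the 10 ATAC windows that lay in member regions with higher H3K27ac in mTg, the first Fabp3 window and the Cd36 window above. It occurred in 1.16% of all 44911 ATAC windows. AGGTCA was present in 4 of these 10 windows, against 7171 of the 44911, and GGGCGG also in 4, against 9719. The upstream Fabp3 window held none of the 3 words. A match describes the letters and is not evidence of a bound factor.

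The promoters below are the 250 bases before the start site, on the strand of the gene and with the same capitals, from RefSeq on mm10. They are shown for members of the inner membrane and of beta-oxidation whose start site or upstream region carried a changed H3K27ac level.
Cpt2, minus strand, chr4:107923590-107923839: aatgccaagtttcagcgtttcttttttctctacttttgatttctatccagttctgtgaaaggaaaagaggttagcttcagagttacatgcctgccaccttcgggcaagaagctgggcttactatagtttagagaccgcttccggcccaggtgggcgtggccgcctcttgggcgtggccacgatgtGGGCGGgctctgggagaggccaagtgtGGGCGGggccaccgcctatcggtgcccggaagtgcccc
Acadvl, minus strand, chr11:70015429-70015678: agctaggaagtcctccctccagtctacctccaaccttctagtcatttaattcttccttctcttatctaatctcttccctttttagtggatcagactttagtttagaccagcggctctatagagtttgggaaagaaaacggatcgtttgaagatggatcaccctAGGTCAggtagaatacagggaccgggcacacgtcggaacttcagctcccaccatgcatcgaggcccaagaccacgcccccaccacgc
Acadl, minus strand, chr1:66863310-66863559: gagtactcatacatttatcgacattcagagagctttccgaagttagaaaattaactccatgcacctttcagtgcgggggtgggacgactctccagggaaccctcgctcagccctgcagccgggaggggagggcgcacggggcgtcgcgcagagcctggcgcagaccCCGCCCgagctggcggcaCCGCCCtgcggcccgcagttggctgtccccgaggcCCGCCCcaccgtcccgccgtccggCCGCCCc
Ucp3, plus strand, chr7:100472741-100472990: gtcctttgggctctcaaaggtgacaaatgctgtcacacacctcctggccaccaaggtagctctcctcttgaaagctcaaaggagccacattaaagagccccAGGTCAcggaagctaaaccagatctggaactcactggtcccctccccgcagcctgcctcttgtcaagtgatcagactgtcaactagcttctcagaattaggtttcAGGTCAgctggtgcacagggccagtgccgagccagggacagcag

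A promoter entry matched 8 of the 10 members, and Lpl and Cpt1b had none. AGGTCA occurred in 4 of these 8 (Acadm, Cd36, Acadvl and Ucp3), against 14.0% of 32851 promoters. The GC box occurred in another set of 4, with Cd36 in both sets (Acadl, Cpt2, Cd36 and Hadha), against 32.7%. No member promoter held TNAAGGTCA, which 1.14% of all promoters held.

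The members differed widely in how much acetylated chromatin was assigned to them. Peaks go to the nearest start site, so the counts also depend on the distance to neighbouring genes. Lpl had 7 to 17 H3K27ac peaks per list and Cd36 had 7 to 15, covering 25.7 to 43.7 kb and 21.6 to 49.5 kb. In the mTg list, 14 peaks were assigned to Lpl and 12 to Cd36, and only 1.49% and 2.44% of genes with a peak had as many. Of the Lpl peaks, 8 of 16 in Quad, 9 of 17 in Wt and 7 of 14 in mTg lay within 50 kb of its start site. In each of these lists 1 peak lay within 10 kb. For Cd36, 14 of 15, 11 of 12 and 12 of 12 lay within 50 kb of a start site. Ucp3 had 2 to 8 peaks and Fabp3 3 to 5. The enzymes of the mitochondrial matrix carried few: Acadvl and Hadha had 1 in every list, Acadl 1 to 3 and Acadm 2 to 5, while Cpt2 had 1 to 2 and Cpt1b 0 to 2. Of the 337 peaks, 172 were intronic, 123 intergenic and 29 in the promoter class, which the authors let run from 1000 bp before a start site to 100 bp past it.

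Every member had at least 1 start site under an H3K27ac peak in all 8 lists. Cd36 has 3 start sites, and in Ex only 2 of them lay under a peak. In some lists a start-site peak bore the name of a neighbour. Cpt1b had no peak of its own name in Wt, where the peak over its start site was assigned to Chkb, 4065 bp away. The start sites of Hadha and Hadhb, which encode both subunits of the trifunctional protein, lie 273 bp apart, so that their promoter signal cannot be told apart. In EDL, Sol and Dia their shared peak was named Hadhb, and the peak named Hadha was a weaker one inside the gene, at score percentile 35.3, 40.8 and 12.4. Dlg4 starts 1775 bp from Acadvl.

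H3K4me2 covered at least 1 start site of all 10 members in EDL, Quad, Sol, Sed and the libraries labelled Wt, of 9 in Dia and in Ex, and of 5 in the libraries labelled mTg. Peaks of this mark were fewer, 20 to 30 per list outside the libraries labelled mTg and 16 in those. Cd36 again had the most (4 to 12).

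Start-site peaks were compared as the log2 tag level per kb of peak width, minus the median of the same library over peaks found in all 8 lists. Lpl was high in every group, from 0.74 (Wt) to 1.61 (Dia). Its 2 Dia libraries were at 1.64 and 1.59 and the 2 Sol libraries at 1.32 and 1.08, so the groups did not overlap. Ucp3 was highest in EDL (1.30 and 1.07) and mTg (1.20 and 1.05), which overlapped, and lowest in Sol (0.07 and −0.09). Acadvl was highest in Dia (0.97 and 1.21) and lowest in Quad (−0.19 and 0.13). Peaks were drawn separately in each list and their width varied, for Ucp3 from 5888 to 16979 bp and for Hadha from 1923 to 13240 bp, and a narrow peak gives a higher level per kb. The highest levels of Hadha (1.55) and Acadl (1.00) were in Ex, where their peaks were narrowest.

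**Figure D1:**
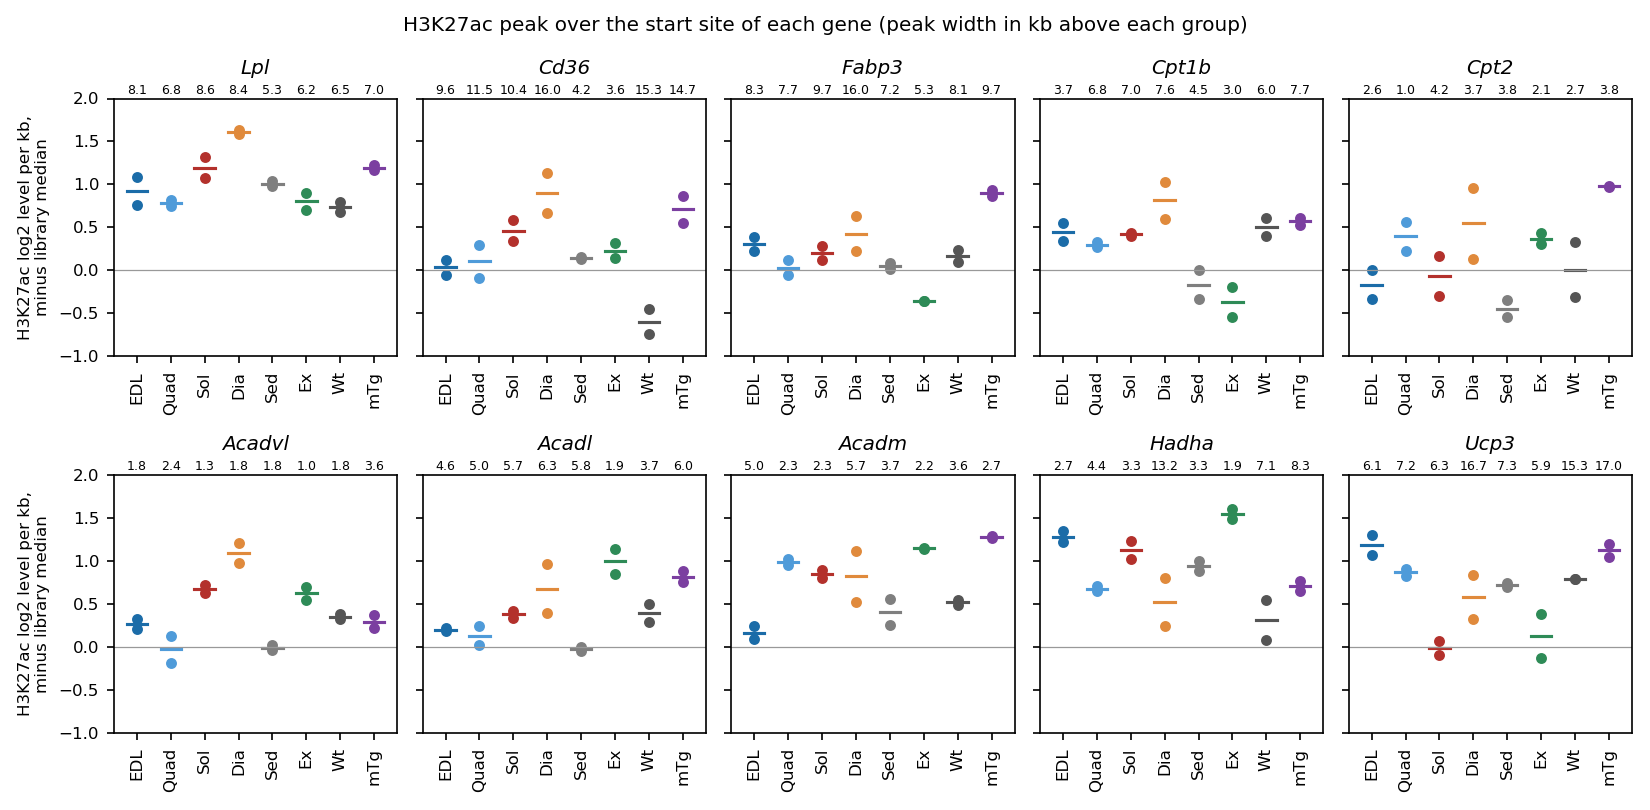
H3K27ac at the start-site peak of each member, 1 panel per gene. The y axis is the log2 level per kb minus the library's median over peaks common to the 8 lists, points are the 2 libraries of a group, bars their mean, and the numbers above are peak widths in kb. Lpl stayed above 0 in all 16 libraries, while Ucp3 was at 1.30 and 1.07 in EDL and at 0.07 and −0.09 in Sol.

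Regions of 2 lists were then matched where they overlapped each other by at least 50%, and the difference in log2 level per kb was centred on its median over all matched regions of the 2 lists. A region counted as over 2-fold apart when the centred difference passed 1 on the log2 scale and the libraries of the 2 groups did not overlap. The lists were normalized separately by the authors, so these are descriptions with no test.

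Fast and slow muscle were compared first. Between EDL and Quad, the 26 matched member regions differed by −0.55 to 0.55 (median 0.17, and 0.087 without Quad replicate 2), and none was over 2-fold apart, against 0.644% of all matched regions. Against Quad, Sol had 1 of 22 member regions over 2-fold apart (3.74% of all), and against EDL it had 1 of 26 (2.88% of all). Both were the promoter of Ucp3, which was lower in Sol. The Sol libraries were at 6.67 and 6.49 log2 per kb there (chr7:100469459-100475729), the Quad libraries at 7.57 and 7.48 and the EDL libraries at 8.30 and 8.13. Neither group overlapped Sol. The centred difference was −1.01 from Quad and −1.38 from EDL.

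Other members differed less between Sol and Quad. The differences were 0.57 for Acadvl, 0.32 for the Hadha promoter, −0.27 for Acadm and −0.01 for Cpt1b, and Lpl had regions from −0.31 to 0.85. The median was 0.11 between Sol and Quad (0.07 without Quad replicate 1) and 0.22 between Sol and EDL, where it turned to −0.040 without centring. Without division by width, the medians of EDL and Sol against Quad were −0.10 and −0.03. Sol also carried peaks at all 5 slow-fiber markers (summed score 2197.5, against 175.4 in Quad and 140 in EDL) and less over the muscle markers (5639.8, against 9492.2 and 12094.9). The part of fiber composition in the Ucp3 difference was not tested.

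The diaphragm, which contracts without rest, showed the widest range. Of 18 matched member regions, 3 were over 2-fold higher than in Quad and 1 was lower, against 4.26% of all in either direction. A region 19 kb downstream of the Lpl start site had 6.43 and 6.02 in Dia and 4.67 and 4.65 in Quad (centred difference 1.10). The Fabp3 region about 9 kb upstream (chr4:130298372-130301414) had 7.23 and 7.52 against 5.88 and 5.56 (1.19). The Acadvl promoter region had 8.05 and 8.30 against 6.48 and 6.78 (1.08). In each, both Dia libraries were above both Quad libraries.

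The lower region was the distal region of Ucp3, 34 kb upstream in an intron of C2cd3. It had 4.87 and 5.37 in Dia and 6.55 and 6.50 in Quad, a centred difference of −1.87 and at percentile 0.117 of all matched regions. In EDL the same region stood at 6.78 and 7.07, and in Sol no H3K27ac peak overlapped the interval chr7:100436845-100441497. The median over the 18 regions was 0.26, and it was 0.01 without Dia replicate 2. Adipocyte markers summed to 748 in Dia and 334 in Quad, with 3 and 2 of 6 genes bearing a peak and Plin1, Cidec and Adrb3 without one in both. Their part in the differences was not tested.

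**Figure D2:**
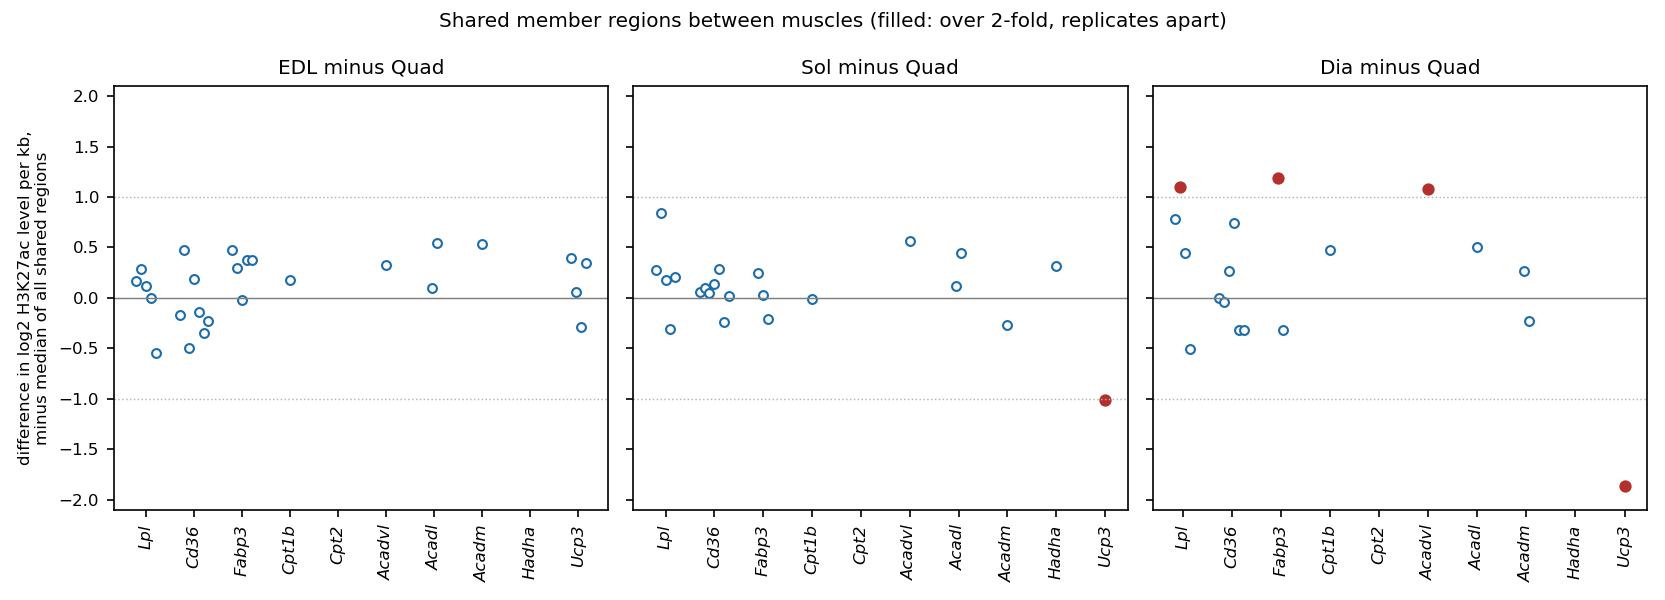
Matched H3K27ac regions of each member in EDL, Sol and Dia against Quad. The y axis is the difference in log2 level per kb after centring, each point is 1 region, filled points are over 2-fold apart with the libraries of the 2 groups not overlapping, and dotted lines mark 2-fold. Ucp3 gave the filled points below 0 (−1.01 in Sol, −1.87 in Dia), and Lpl, Fabp3 and Acadvl those above 0 in Dia.

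H3K27ac was higher at most of these genes in mTg than in Wt. The authors' list of PGC1α-modified regions (PMRs) with hyperacetylation in mTg held 11 regions of 7 of the 10 members: Cd36, Fabp3, Cpt1b, Cpt2, Acadvl, Acadl and Ucp3. Of all 15286 genes with an H3K27ac peak in mTg or Wt, 9.22% had such a region. The members were chosen with earlier results of these data known, so this comparison is a description. Lpl, Acadm and Hadha had none, and no member had a hypoacetylated PMR, which 4.38% of all genes had. By peaks, 12 of the 48 mTg peaks of the members overlapped a hyperacetylated PMR, against 4.96% of all mTg peaks, and 0 of 53 Wt peaks overlapped a hypoacetylated one, against 1.72% of all. For hypoacetylated PMRs, counts of 0 among 10 members and 53 peaks are near what these shares give. The members carried more and wider peaks than the typical gene (median width 2237 bp in mTg, against 1387 bp over all), and a gene with more peaks has more chances of a modified region.

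Within the list the 4 libraries were normalized together, which allowed a test. limma called all 1828 regions at an adjusted p under 0.05 (100%), as the authors had chosen them for differing, so this shows how far the libraries separated and is not independent evidence. The levels are taken to be on a scale that shrinks the differences of weak regions. As the authors' cut was 2-fold, a small difference at a low level is not evidence of a small change. The Fabp3 region 10 kb upstream (chr4:130296673-130300973, intergenic) had a log2 level of 8.90 and 8.94 in mTg and 7.72 and 7.61 in Wt. The difference was 1.25 ± 0.12 (SE, n = 2 and 2; limma adjusted p = 5.02e-09). This region overlaps the one over 2-fold higher in Dia, and it had an H3K27ac peak in 7 of 8 lists (all but Ex) but an H3K4me2 peak only in Sol and the libraries labelled Wt.

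The Fabp3 promoter region (chr4:130304346-130314051) had 10.67 and 10.53 in mTg against 9.65 and 9.57 in Wt, a difference of 0.99 (limma adjusted p = 1.60e-07). A weak region at the 3′ end of the gene, which abuts the end of Zcchc17, differed by 0.52 (5.27 and 5.17 against 4.61 and 4.78). Cd36 had a region of 19505 bp around its upstream start site (chr5:17875043-17894548) at 11.07 and 11.28 in mTg and 10.10 and 9.95 in Wt, a difference of 1.15 (limma adjusted p = 2.99e-08). Inside the gene, 2 intronic regions 7.2 and 13.9 kb upstream of an internal start site differed by 1.06 and 0.77. All 6 regions of the uptake genes separated the mTg from the Wt libraries without overlap.

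Cpt2, the inner membrane transferase, rose over its start site (chr4:107920489-107924304). The level was 9.33 and 9.24 in mTg and 8.32 and 7.96 in Wt, and the difference was 1.15 ± 0.13 (SE; limma adjusted p = 5.16e-08). Cpt1b rose away from its start site, in a region of low level. This intronic region 6.9 kb downstream (chr15:89418012-89419840) had 5.53 and 5.44 against 4.94 and 4.95 (0.54, limma adjusted p = 2.25e-04), and only the mTg list had an H3K27ac peak there. At the Cpt1b start site the matched peaks of mTg and Wt differed by 0.12 per kb.

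Of the dehydrogenases, Acadl rose from 8.98 and 8.83 in Wt to 9.90 and 9.71 in mTg over its promoter (chr1:66860700-66866660), a difference of 0.90 (limma adjusted p = 7.64e-07). Acadvl rose from 7.76 and 7.75 to 8.53 and 8.57 over chr11:70012749-70016386, a difference of 0.80 (limma adjusted p = 2.22e-06). Next to it, a region named for Dlg4 (chr11:70017763-70019080) was in the hypoacetylated list, with 5.35 and 5.41 in mTg and 5.89 and 5.86 in Wt. Acadm and Hadha had no PMR. Their matched start-site peaks were at 7.54 and 7.37 against 6.75 and 6.68 (Acadm, centred difference 0.81) and at 7.01 and 6.76 against 6.76 and 6.26 log2 per kb (Hadha, 0.44). For Acadm the groups did not overlap. For Hadha the lower mTg library lay at the level of the higher Wt library before centring. Centred on the peaks common to all 8 lists, Hadha was at 0.76 and 0.66 in mTg and 0.55 and 0.08 in Wt, without overlap. The Acadm peak was narrower in mTg (2730 bp, against 3649 bp in Wt), which raises its level per kb. The Hadha peak was wider in mTg (8292 bp, against 7148 bp). A hyperacetylated PMR within 10 kb of the Hadha start site (chr5:30164894-30166269) was assigned to Mir1960 and differed by 1.07.

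Ucp3 rose in a small distal region, chr7:100441309-100442299, with 5.53 and 5.48 in mTg and 5.03 and 4.92 in Wt (0.54, limma adjusted p = 2.59e-04). Its start-site peak, which was the strongest member peak in mTg (score percentile 99.9), differed by 0.38 per kb and was not in the list.

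**Figure D3:**
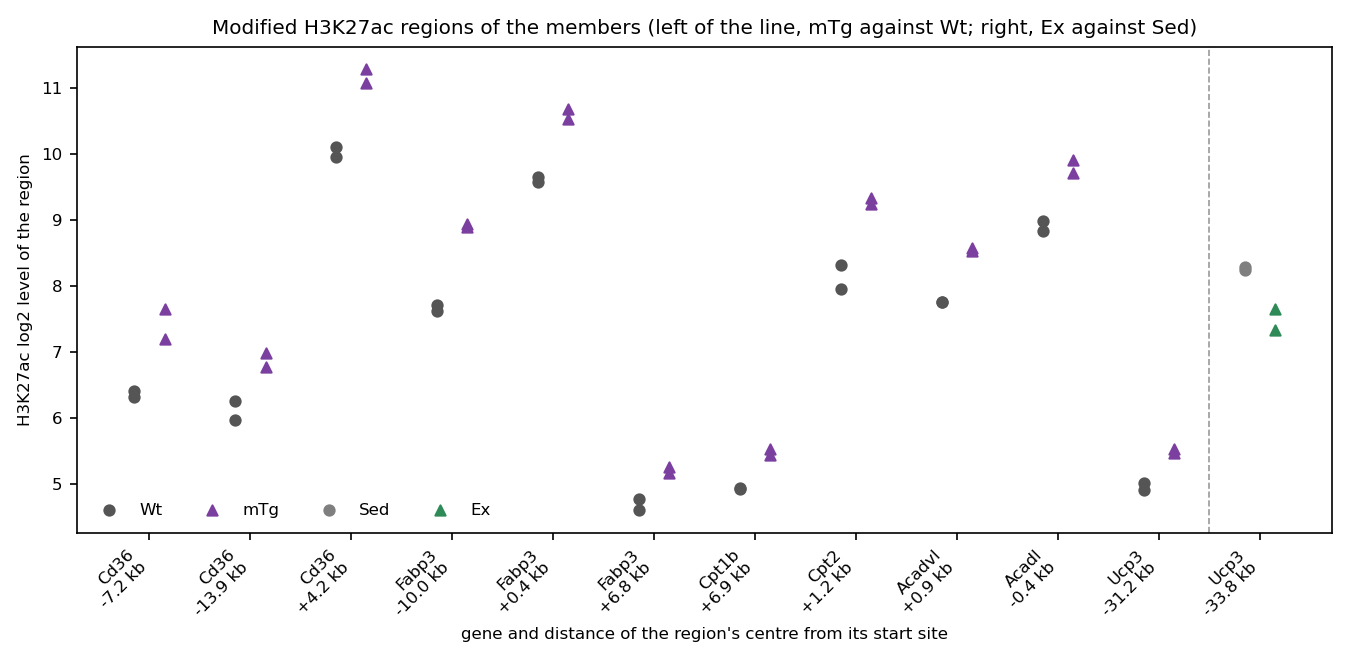
H3K27ac log2 level, on the y axis, in each library for the 12 member regions of the differential lists, labelled by gene and distance from the start site. Circles are control libraries (Wt, or Sed right of the dashed line) and triangles mTg or Ex. In each region both triangles lay on the same side of both circles, with differences from 0.52 to 1.25 in mTg and −0.77 in Ex.

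Whole peaks of the same H3K27ac libraries went in the same direction. Some of them overlap PMRs, which the authors had chosen for differing, so this is not independent evidence. Of 26 matched member regions, 21 were above 0 in mTg against Wt, with a median of 0.34 (0.30 to 0.37 when any 1 library was left out), and 3 were over 2-fold higher and none lower, against 4.64% of all in either direction. The 3 were the large Cd36 region (6.80 and 6.97 against 5.76 and 5.45 log2 per kb, centred difference 1.35), the upstream Fabp3 region (6.66 and 6.65 against 5.53 and 5.29, 1.31) and Cpt2 (7.24 and 7.08 against 6.53 and 5.87, 1.02). Each overlaps a hyperacetylated PMR given above, so its direction was set by the authors' choice. The lowest were 2 regions of Lpl, at −0.62 and −0.56, although the Lpl start site was at 0.51. Acadvl was at −0.01 per kb, as its peak was 3637 bp wide in mTg and 1820 bp in Wt. For H3K4me2, 7 member regions were matched between the libraries labelled mTg and Wt, from −0.39 to 0.32, and none was over 2-fold apart (0.724% of all). Given the state of the libraries labelled mTg, this is not a comparison of equal libraries.

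Summed peak scores over markers of other cells differed between mTg and Wt in both directions. Adipocyte markers summed to 867.5 in mTg and 378.5 in Wt, 4 of 6 had a peak in both, Cidec and Adrb3 had none, and Plin1 and Cidea had a hyperacetylated PMR. The sums over muscle markers were 12189.0 and 12422.3, and over endothelial markers 3002.6 and 2381.5, of which Emcn had a hyperacetylated PMR. Macrophage markers summed to 932.4 in mTg and 1305.1 in Wt, with a peak at 5 and 6 of 6 genes and Cd68 without one in mTg. In the paper, qPCR of some macrophage and vascular markers gave higher levels in mTg muscle, so the macrophage sum here went the other way. The paper proposes that a changed cell content could add to the mTg signals. The part of these cells in the result was not tested.

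Of 35 other genes of the pathway, 11 had a hyperacetylated PMR (31.4%, against 9.22% of all genes; 15 regions). Among them were Plin5, which coats lipid droplets (1.60, the largest), Slc25a20, the carnitine-acylcarnitine translocase (0.97), Hadh, the short-chain hydroxyacyl-CoA dehydrogenase (0.93), Acsl1, which activates fatty acids (0.92 and 0.96), the fatty acid transporter Slc27a1 (0.81 in both regions), the monoglyceride lipase Mgll (0.97 and 0.96) and the auxiliary oxidation enzymes Eci2 (0.86) and Decr1 (0.80). Acot13 (0.86), Angptl4, an inhibitor of lipoprotein lipase (0.70), and Acacb, whose product malonyl-CoA inhibits CPT1 (0.74 and 0.94), completed the list. 2 of the 35 had a hypoacetylated PMR (5.71%, near the 4.38% of all genes), the activating enzyme Acsl3 (−0.39) and the lipoprotein receptor Vldlr (−0.86 and −0.73). The 35 genes were listed with earlier results of these data known. The paper had already placed hyperacetylated PMRs at genes of lipid metabolism, so these shares are not independent evidence.

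In the differential lists of exercise the counts of members were near the shares over all genes and are not a result about the members. These counts take the nearest start site only. By other rules for tying regions to genes, the paper gave Acadl as an example of an up-regulated gene associated with an EMR. It also placed hypoacetylated EMRs at genes of lipid metabolism. No member had an exercise-modified region (EMR) with hyperacetylation, against 2.34% of 14815 genes with a peak in Ex or Sed, and 0 of 35 Ex member peaks overlapped one, against 1.1% of all. Among hypoacetylated EMRs only Ucp3 had a region, 1 of 10 members against 10.6% of all genes, and 1 of 41 Sed member peaks (2.44%) overlapped one, against 6.71% of all.

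That region was the distal Ucp3 interval in C2cd3 (chr7:100436845-100441497), the interval that was low in Dia. It had 7.65 and 7.33 in Ex and 8.28 and 8.24 in Sed. The difference was −0.77 ± 0.21 (SE, n = 2 and 2; limma adjusted p = 7.25e-04), in a list of which limma called 99.7%. Without Ex replicate 2 the difference was −0.61 and the limma adjusted p = 0.0636. The Ucp3 region that rose in mTg overlaps its 3′ end, so that neighbouring parts of 1 intron were lower in Ex and higher in mTg. No test compared them, since both were normalized in separate lists.

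Matched regions gave a mixed picture. Of 23 member regions, 10 were above 0 in Ex against Sed, the median was −0.15 (−0.001 without Ex replicate 2 and −0.05 without Sed replicate 1), and none was over 2-fold apart, against 3.17% of all. The start-site regions of Cpt2 (0.65), Acadm (0.58), Acadvl (0.47) and Hadha (0.44) were higher per kb, but their peaks were narrower in Ex. Those of Ucp3 (−0.76), Fabp3 (−0.57), Lpl (−0.37) and Cpt1b (−0.36) were lower. For Fabp3 the libraries were at 6.26 and 6.03 in Ex and 6.83 and 6.80 in Sed. Member peaks covered 95.7 kb in Ex and 128.9 kb in Sed. As given above, the muscle marker sum in Ex was under that in Sed, and 4 of 9 muscle markers (Actn3, Myh4, Myh1 and Pvalb) had a hypoacetylated EMR. Macrophage markers summed to 1118.1 in Ex and 715.0 in Sed, with a peak at 6 and 5 of 6 genes and Cd68 without one in Sed. In the paper, qPCR of immune, vascular and myogenic markers showed no changed cell composition in Ex muscle, and type IIb fibers were fewer in Ex gastrocnemius. The part of cell types and of fiber type in the values was not tested.

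**Figure D4:**
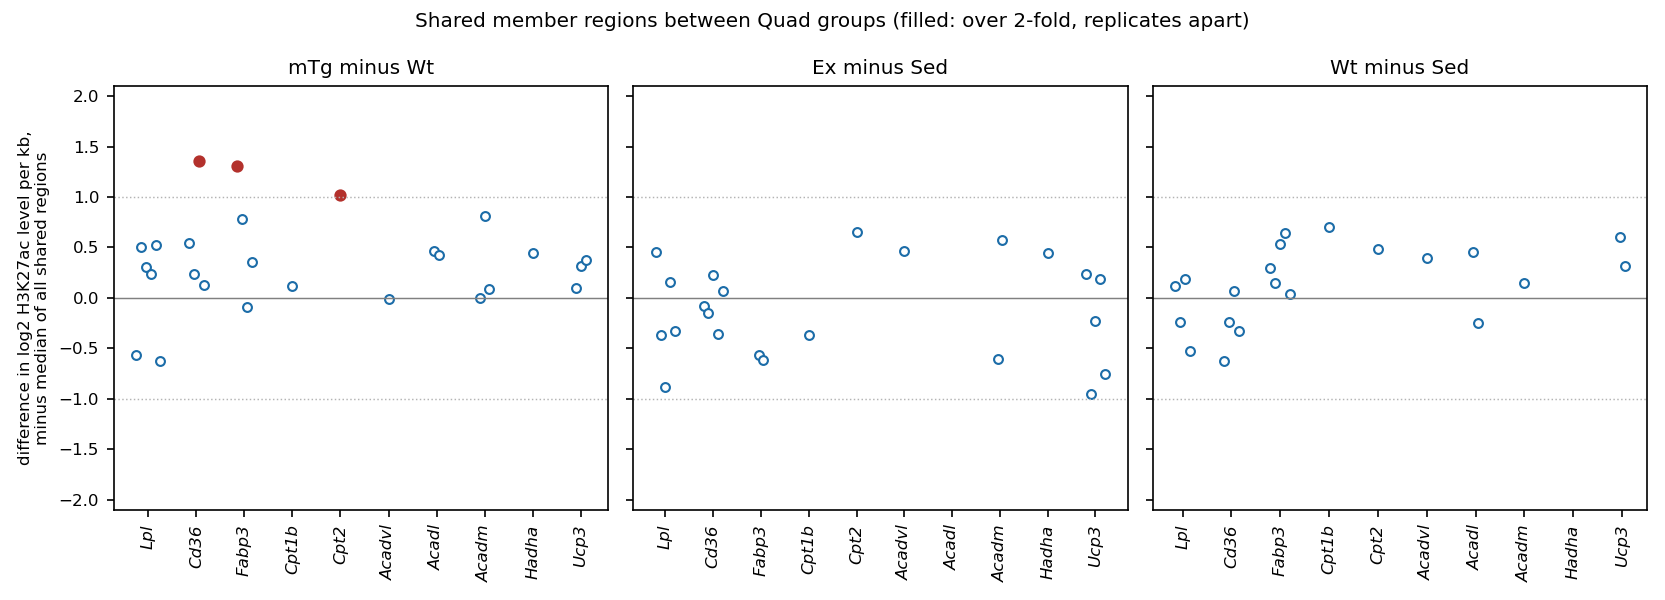
Matched H3K27ac regions of each member for mTg against Wt, Ex against Sed and Wt against Sed. Axes and symbols are a difference in log2 level per kb after centring, 1 point per region, filled where over 2-fold with libraries not overlapping. In mTg 21 of 26 points lay above 0, in Ex 10 of 23, and between the untreated groups 15 of 21.

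Of the 34 other pathway genes with a peak in Ex or Sed, none had a hyperacetylated EMR (2.34% of all genes) and 3 had hypoacetylated ones (8.82%, against 10.6% of all genes), both near the share of all genes. The 3 were Acsl3 (−1.02 and −0.72), Vldlr (−0.91) and Acacb (−0.78 and −0.94). The Acacb region 13 kb upstream was higher in mTg (0.74), and the EMR that overlaps it was lower in Ex (−0.78). Exercise and H3K4me2 were also compared: 10 of 13 matched member regions were above 0 (median 0.25), and none was over 2-fold apart (0.0925% of all). That median turned to −0.13 without division by width and to −0.091 at 80% overlap.

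The untreated Quad groups set the scale for differences between experiments. Sed against Quad had a median of −0.28 over 27 member regions with none over 2-fold apart (1.07% of all), and Wt against Sed one of 0.15 over 21 with none (0.495% of all). Without Sed replicate 2 the first was −0.17. The second was 0.33 without Sed replicate 1 and 0.10 without Sed replicate 2, and it turned to −0.45 without centring. In Wt against Quad, 2 of 26 were over 2-fold apart (1.36% of all): a small Acadm region 3 kb inside the gene was higher (1.14) and the Cd36 region at the gene's downstream start site was lower (−1.04; 5.72 and 5.63 in Wt, 7.08 and 7.22 in Quad). Single member regions of these untreated sets differed by 1.04 and 1.14 in size, against 1.02 to 1.35 for the 3 that were over 2-fold higher in mTg. These sizes are not like for like, as Wt and Quad came from separate experiments, while mTg and Wt were littermates. The Acadm libraries were at 6.10 and 5.44 in Wt and 5.24 and 4.88 in Quad.

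For H3K4me2 no member region was over 2-fold apart in any of the 9 pairs of groups. Over all matched regions the shares were 0.453% (EDL against Quad), 1.88% (Sol against Quad), 1.58% (Dia against Quad), 0.626% (Sol against EDL), 0.739% (Sed against Quad), 2.69% (Wt against Quad) and 1.78% (Wt against Sed). With 7 to 15 member regions in a pair, a count of 0 is near what these shares give. H3K4me2 values for Wt rest on the libraries labelled Wt.

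Accessible chromatin and the mediator subunit MED1, found at active enhancers, were read out in other libraries. In Quad, 31 of 51 member H3K27ac peaks (60.8%) held an ATAC peak, against 57.2% of all, and all 10 members had at least 1. Member peaks were wider than those of the whole list (median 2316 against 1551 bp in Quad, 2693.5 against 1889 bp in EDL). A wider peak has more chances of an overlap, which also bears on the MED1 shares below. The highest signal was at the Acadm start site (32.1, percentile 98.1 of all ATAC peaks), followed by 23.2 near Chkb, in the peak assigned to Cpt1b, and 21.5 at the Cpt2 start site. The upstream Fabp3 window printed above had 19.1 (percentile 91.3), the distal Ucp3 window 7.21 (51.0) and the Cd36 window 6.14 (41.3). The ATAC signal is a tag number after scaling by library size.

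Each MED1 list came from 1 library of pooled muscle. Quad had them in 3 of 51 member peaks (5.88%, against 3.76% of all): the upstream Fabp3 region, the Chkb end of the peak assigned to Cpt1b, and the shared start of Hadha and Hadhb. Sol had 3 of 41 (7.32%, against 5.34% of all), at Acadl, Acadvl and Cd36. EDL had 2 of 36 (5.56%, against 1.12%), at the promoters of Ucp3 and Acadl, and Dia had 2 of 32 (6.25%, against 4.16%), at Cpt2 and in an Lpl region 27 kb downstream. No peak of the transcription factor NFAT lay in a member region of Quad (0.0464% of all peaks held one) or Sol (3.02%). A list without a peak does not show that the factor was absent.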

How the data were processed

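H3K27ac and H3K4me2 ChIP-seq libraries (2 per group and mark, 75-bp single-end reads) were aligned by the authors to mm10 with Bowtie (version 1.2 per the labels) and reduced to 1 tag per position in HOMER. The authors called peaks over both libraries of a group against input, and differential regions between groups, with HOMER and DESeq2 at 2-fold and an FDR of 0.05. The deposited tag columns are log2 levels that the authors took from DESeq2 per the file headers, normalized within each list and taken here to be its regularized logarithm, which shrinks differences of weak regions. The peak score is the authors' scaled tag count, and the deposited ATAC signal is a tag number after scaling by library size. The deposited p-value, ratio and fold columns over input are the authors', and served only as filters in alternatives. The columns comparing mTg with Wt and Ex with Sed were not used.

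Samples were grouped by titles and labels. The members and gene lists were chosen with earlier results of these data known. All 10 members are named, and the other pathway genes where a differential list holds them. Regions were matched at a reciprocal overlap of 50% (numpy 2.4.6, pandas 2.3.3) and compared without a test, since lists were normalized separately. Within differential lists limma 3.58.1 (R 4.3.3) was used, two-sided, with Benjamini-Hochberg adjustment over the list, and was tested on simulated data. ATAC and factor peaks counted with an overlap of 1 bp. Alternatives were stricter peak thresholds, 80% overlap, no width division, no centring, 1.5-fold, a replicate block, a variance trend and leaving out each library. Depth of the factor libraries is unknown here. The number of libraries, 2 per group, limits precision. The labels do not tie replicate numbers to animals across groups. Exercise and PGC1α ATAC lists and footprints were not used here, as they are not in mm10 coordinates.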

Additional observations from a re-analysis of the deposited data

How the results depend on the processing

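Counts of member peaks over the 8 lists were 337 (H3K27ac) and 185 (H3K4me2). They were 219 and 122 at the authors' adjusted p-value under 0.001, and 213 H3K27ac peaks lay within 10 kb of a start site under any name. The counts at 4-fold over input and within 50 kb stayed within 1.5 times. The numbers of members with a modified region were the same within 50 kb, and a stricter adjusted p-value for them was not run, because the authors' comparison columns were not used. MED1, NFAT and ATAC counts were unchanged when the factor peak's centre had to lie in the member peak, within 1.5 times. Replicate numbers were shared between groups without a tie to animals. With the number as a replicate block, limma called 1828, 844, 382 and 2280 regions (PMR hyper- and hypoacetylated, EMR hyper- and hypoacetylated), against 1828, 844, 381 and 2274 without, and no member region changed its call. Deviations of same-numbered libraries correlated at −0.04, −0.24, 0.14 and 0.11. With 1 library left out, calls ranged over 1798 to 1812, 820 to 839, 0 to 381 (0 without Sed replicate 1, 205 without Sed replicate 2) and 1191 to 2245 (1191 without Ex replicate 2), where the lone library of a group is assumed to vary like the others. Of 12 member regions only the Ucp3 region of the EMR list lost its call (−0.61, limma adjusted p = 0.0636, without Ex replicate 2). A variance trend changed no count by over 1.5 times, and centring on medians over both PMR lists left 1549 regions called and all 11 member regions among them.

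Median differences at matched member regions moved more. Without centring, H3K27ac medians were 0.51 (EDL against Quad), 0.17 (Sol against Quad), 0.73 (Dia against Quad), −0.040 (Sol against EDL), −0.25 (Ex against Sed), 0.27 (mTg against Wt), −0.13 (Sed against Quad), −0.35 (Wt against Quad) and −0.45 (Wt against Sed). Without division by width they were −0.10 (EDL against Quad), −0.029 (Sol against Quad), 0.29 (Sol against EDL), −0.29 (Ex) and 0.64 (mTg). At 80% overlap they were 0.019 (Sol against Quad), 0.17 (Sol against EDL), −0.34 (Ex) and 0.39 (mTg). Leaving out 1 library gave 0.087 to 0.23 (EDL against Quad), 0.068 to 0.14 (Sol against Quad), 0.012 to 0.42 (Dia against Quad), 0.20 to 0.23 (Sol against EDL), −0.20 to −0.0011 (Ex) and 0.10 to 0.33 (Wt against Sed). At 1.5-fold, 2 (Sol against Quad), 5 (Sol against EDL), 6 (Ex), 6 (mTg), 3 (Sed against Quad), 6 (Wt against Quad) and 4 (Wt against Sed) member regions were counted.

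For H3K4me2, medians without centring were 0.37 (EDL against Quad), 0.0013 (Dia against Quad), −0.51 (Sol against EDL), −0.42 (mTg), −0.43 (Sed against Quad), −0.38 (Wt against Quad) and 0.015 (Wt against Sed). Without division by width they were 0.018 (Sol against Quad), 0.19 (Dia against Quad), 0.030 (Sol against EDL), −0.13 (Ex), 0.074 (Wt against Quad) and 0.18 (Wt against Sed). At 80% overlap they were 0.18 (Dia against Quad), −0.18 (Sol against EDL), −0.091 (Ex) and −0.29 (mTg). Leaving out 1 library gave −0.033 to 0.017 (EDL against Quad), −0.16 to −0.073 (Dia against Quad), −0.16 to −0.10 (Sol against EDL), 0.17 to 0.27 (Ex), −0.15 to 0.068 (mTg), −0.089 to −0.033 (Wt against Quad) and 0.029 to 0.18 (Wt against Sed). At 1.5-fold, 1 (Sol against EDL) and 2 (Sed against Quad) regions were counted. The causes of these shifts were not tested.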
